A study of Mus musculus with 6 samples.

Results

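The expression of the genes encoding the TGF-β ligands, their receptors and the latent TGF-β binding proteins was examined in mammary tumors of BK5.ATF3 mice. The genes were taken by symbol and are the 3 ligands *Tgfb1*, *Tgfb2* and *Tgfb3*, the 3 receptors *Tgfbr1*, *Tgfbr2* and *Tgfbr3*, and the 4 latent binders *Ltbp1*, *Ltbp2*, *Ltbp3* and *Ltbp4*. All 10 were present among the 15280 genes of the RNA-Seq table. The 6 libraries came from 3 female ATF3 transgenic mice. From each mouse a mammary tumor (libraries T11035, T11640 and T9232) and the adjacent normal gland (libraries M11035, M11640 and M9232) were sequenced, so each tissue had n = 3, and p-values measure the spread between these mice. The females had raised 1 litter, and their tumors appeared at 6 to 12 months and were collected at 1.5 cm. A keratin 5 promoter (BK5) drives the ATF3 transgene in basal epithelium, and the normal glands carry it too, so the comparison is not one between transgenic and wild-type tissue. *Atf3* itself had 4.47, 8.09 and 22.6 CPM in glands M11035, M11640 and M9232 and 13.4, 18.3 and 19.3 CPM in tumors T11035, T11640 and T9232, an order kept throughout. It did not differ between the tissues at the thresholds used (log2 fold change 0.80, 95% interval -0.32 to 1.91, adjusted p = 0.223, limma). This held in 15 of 16 alternative fits (described with the processing), and the log2 fold change ran from -0.41 to 1.41 over all 16. Whether this row counts transgene fragments was not determined.

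TGF-β is a secreted dimer that leaves the cell wrapped in its own propeptide, and in this latent form it cannot reach its receptors. Latent TGF-β binding proteins tie the complex to fibrillin and fibronectin in the extracellular matrix, and integrins or proteases release the active ligand there. The free ligand brings together the type II and type I receptor kinases, which phosphorylate Smad proteins. In the mammary gland the pathway restrains epithelial growth and takes part in involution, and in carcinomas it is known for its link to the epithelial-mesenchymal transition (EMT).

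The libraries held 4750989 to 7806908 fragments assigned to genes. The members were covered by 28 to 2754 fragments per library, well over the 3 fragments taken as the floor of detection, which correspond to 0.393 to 0.610 CPM. CPM are the fragments of a gene scaled to edgeR's effective library size. The tissues also differed in their cell type markers, and the glands differed among themselves in several of them, most widely in skeletal muscle markers. The macrophage markers summed to 1042, 2005 and 3775 CPM in glands M11035, M11640 and M9232 and to 1078 to 2295 CPM in the tumors. The summed level of 5 skeletal muscle markers was 3679 and 1455 CPM in glands M11035 and M11640, 4.24 CPM in gland M9232 and 7.08 to 13.8 CPM in the tumors. The 7 adipocyte markers summed to 3254 to 6373 CPM in the glands and 148 to 206 CPM in the tumors, and all 7 were downregulated, with *Lep* at or under the floor in every tumor. The 4 B cell markers summed to 138 to 344 CPM in the glands and 2.23 to 3.54 CPM in the tumors, and the 6 epithelial markers to 209 to 464 and 1954 to 2533 CPM. Of the other marker lists, 5 of 5 T cell, 2 of 6 pericyte and smooth muscle, 2 of 4 lymphatic endothelial and 1 of 6 macrophage genes were downregulated, 1 lymphatic gene (*Pdpn*) was upregulated, and the platelet markers summed to 18.9 to 27.4 CPM in the glands and at most 28.2 CPM in the tumors. In bulk tissue, fewer cells of a type and less RNA per cell cannot be told apart.

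The tissues were compared by limma on log2(CPM + 0.5), and a gene was a differentially expressed gene (DEG) with an adjusted p (FDR) of at most 0.05 and a fold change (FC) of at least 2. Of the 10 members, 1 was upregulated (*Ltbp2*) and 2 were downregulated (*Tgfbr3* and *Ltbp4*). Of all genes of the table, 14.5% were upregulated DEGs and 13.7% downregulated DEGs, so the share of DEGs among the members, 30.0%, was near that of the table, 28.2%. The median log2 fold change was -0.46 over the members and 0.00 over all genes. On the FDR alone 5 of the 10 members passed, beside 41.2% of all genes. The 3 tumors lay all above the 3 glands for 2 members, *Tgfbr1* and *Ltbp2* (27.6% of all genes), and all below them for 4, *Tgfb3*, *Tgfbr3*, *Ltbp3* and *Ltbp4* (26.3% of all genes). Together these are 6 of 10 members, beside 54.0% of all genes. The number of members that changed was thus near the background, and the values below describe which ones they were.

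**Figure D1:**
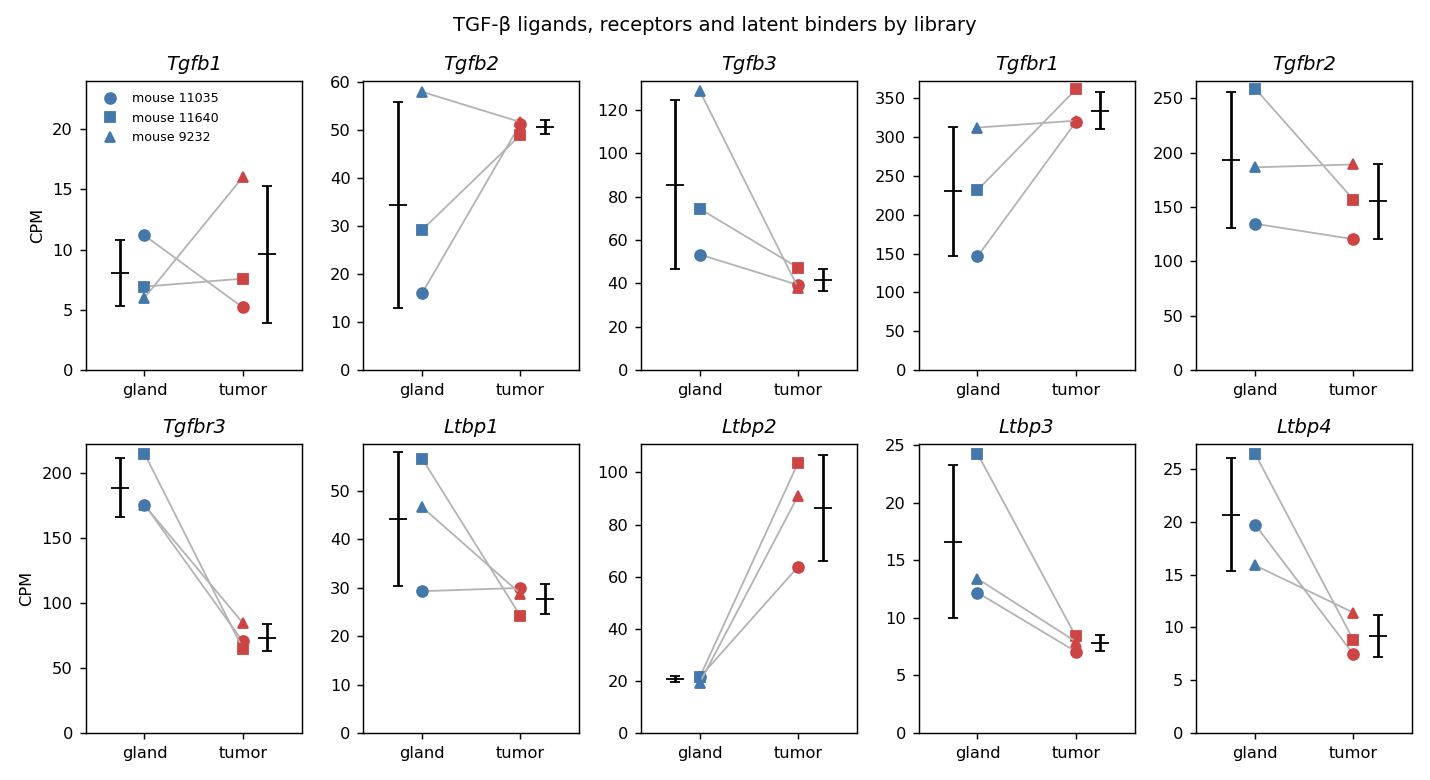
CPM (vertical axes, linear and starting at 0) of the 10 members in the normal gland (blue) and the tumor (red) of each mouse, with a grey line joining the tissues of 1 mouse and black bars for the mean ± SD of 3 libraries. The points of the tissues do not overlap for *Tgfb3*, *Tgfbr1*, *Tgfbr3*, *Ltbp2*, *Ltbp3* and *Ltbp4*.

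The ligands were led by *Tgfb3*, and their balance was different in the tumors. *Tgfb3* (mm9 chr12:87397694-87419991, minus strand) had 53.3, 74.3 and 129 CPM in the glands and 39.3, 47.2 and 37.9 CPM in the tumors. Every tumor was below every gland, and the glands were spread widely while the tumors were close together. The mean was 85.4 ± 38.9 CPM (SD, n = 3) in the glands and 41.5 ± 5.01 CPM in the tumors. The log2 fold change was -0.94 (standard error 0.29, 95% interval -1.61 to -0.28, adjusted p = 0.0308, limma). It passed the FDR but missed the FC threshold, and it was a DEG with edgeR and with DESeq2 on the recovered fragments (log2 fold changes of -1.04 in both). With the mouse as a block in edgeR it was at -0.96 and not a DEG. It was also a DEG without gland M11035, at -1.23, and against gland M9232 alone, at -1.63 (adjusted p = 0.0065, limma). Leaving out any one of the other 5 libraries made it miss the FDR, with adjusted p from 0.0563 to 0.0979 (limma).

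*Tgfb2* (chr1:188447065-188529871, minus strand), the isoform that depends most on *Tgfbr3* for access to the signaling receptors, had 16.1, 29.2 and 58.0 CPM in the glands and 51.4, 49.0 and 51.7 CPM in the tumors. The glands ranged from well under the tumors to slightly above them, and the tumors were nearly equal, with a CV of 2.88% beside 62.3% in the glands. Its log2 fold change, 0.74, missed the FDR (95% interval -0.14 to 1.62, adjusted p = 0.16, limma). *Tgfb2* was a DEG without gland M9232 (log2 fold change 1.21, adjusted p = 0.00713, limma). Against that gland alone the value was -0.19. It was the gland with the lowest muscle markers and the highest epithelial and macrophage markers. Over the remaining alternatives, edgeR and DESeq2 among them, *Tgfb2* was not a DEG. There adjusted p ran from 0.11 (limma with the mouse as a block) to 0.436 (limma without gland M11035).

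*Tgfb1* (chr7:26472021-26490096, plus strand), the isoform of most blood and immune cells and the one best known from tumors, had the lowest mean of the ligands per length. It was at 11.2, 6.94 and 6.02 CPM in the glands and 5.21, 7.60 and 16.0 CPM in the tumors, from 28 to 107 fragments per library. The tissues overlapped, and the direction differed between mice, with a value below its own gland in T11035 and above it in T11640 and T9232. The log2 fold change of 0.14 was within its error (95% interval -0.78 to 1.07, adjusted p = 0.804, limma), and it turned to -0.28 without tumor T9232.

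With limma, 0 of the 3 ligands were DEGs, while 1 had an unadjusted p under 0.05, and edgeR and DESeq2 each called 1, *Tgfb3*. Levels were compared between genes as CPM per kb of exon, on the union of all exons of a gene in the mm9 annotation. Summed over the ligands this level was 35.5 ± 15.0 CPM per kb (SD, n = 3) in the glands and 26.5 ± 2.01 CPM per kb in the tumors (exact permutation test over the 6 libraries, two-sided, p = 0.5). Within this sum, *Tgfb3* took 67.2%, 71.5% and 72.6% in the glands and 47.9%, 51.6% and 39.8% in the tumors. *Tgfb2* took 14.2%, 19.7% and 22.9% in the glands and 43.7%, 37.4% and 37.9% in the tumors. Neither share overlapped between the tissues, although the *Tgfb2* level itself did. Per kb, there were 0.211 to 0.315 *Tgfb2* for each *Tgfb3* in the glands and 0.726 to 0.953 in the tumors. The *Tgfb1* share overlapped, with 4.50% to 18.7% in the glands and 8.40% to 22.3% in the tumors.

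The ligands also differ in how they can be released, since the propeptides of *Tgfb1* and *Tgfb3* carry the tripeptide arginine-glycine-aspartate by which αv integrins pull on the latent complex. In-frame codons for it were found once in the longest complete coding sequence of each of these genes and 0 times in that of *Tgfb2*. The stretches below show the site, with its codons in capitals, on mm9 (GENCODE vM1), at chr7:26482152-26482178 on the plus strand and chr12:87403106-87403132 on the minus strand, in coding exons.
*Tgfb1*: cccaaacgtCGGGGCGACctgggcacc
*Tgfb3*: gaccatggcCGTGGAGACctggggcgt
*Tgfb2*, without them, is the ligand whose share was larger in every tumor. The integrin genes *Itgav* and *Itgb6*, which encode a receptor for this site, were both upregulated (described with the release genes).

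Of the receptors, *Tgfbr3* was downregulated, and *Tgfbr1* and *Tgfbr2* did not pass the FDR. *Tgfbr3* (chr5:107535589-107718648, minus strand) encodes betaglycan, a co-receptor without a kinase that binds all ligands and hands them to the type II receptor. It had 176, 215 and 175 CPM in the glands and 70.3, 64.7 and 84.7 CPM in the tumors. Every tumor was far below every gland, and the libraries of each tissue were close together. The mean fell from 189 ± 22.8 CPM (SD, n = 3) to 73.2 ± 10.3 CPM, 2.57-fold lower. On the log2 scale the change was -1.36 (standard error 0.16, 95% interval -1.73 to -0.996, adjusted p = 2.57e-04, limma). Within the 3 mice it was -1.31, -1.72 and -1.05. The call was the same under all 16 alternatives, with adjusted p up to 0.0142, and that largest p was the one with gland M9232 alone, at -1.26 (limma). *Tgfbr3* is known to be expressed in several stromal cell types, and the adipocyte markers and 2 of 7 blood endothelial markers (*Kdr* and *Tek*) were also downregulated. The endothelial markers summed to 352 to 483 CPM in the glands and 211 to 288 CPM in the tumors. The part of these cell types in the fall of *Tgfbr3* was not tested.

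*Tgfbr1* (chr4:47366094-47427803, plus strand), the type I receptor kinase that phosphorylates Smad2 and Smad3, had 146, 231 and 312 CPM in the glands and 319, 361 and 321 CPM in the tumors. The lowest tumor was just above the highest gland. Its log2 fold change was 0.60 (standard error 0.25, 95% interval 0.03 to 1.17) and missed the FDR (adjusted p = 0.0854, limma). The log2 difference was 1.12 between T11035 and M11035, 0.64 between T11640 and M11640 and 0.04 between T9232 and M9232. It was larger in the mice whose glands had high muscle markers. Other markers also differed between glands M11035, M11640 and M9232. The epithelial markers summed to 209, 262 and 464 CPM and the macrophage markers to 1042, 2005 and 3775 CPM. These differences cannot be told apart here, and their part in the *Tgfbr1* difference was not tested.

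*Tgfbr2* (chr9:115993415-116084383, minus strand), the type II receptor kinase that binds the ligand first, had 135, 259 and 186 CPM in the glands and 120.4, 157 and 189 CPM in the tumors. The tissues overlapped, and the log2 fold change of -0.29 was within its error (95% interval -0.87 to 0.30, adjusted p = 0.399, limma). With 3 mice, a fall or rise within this interval remains possible.

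Summed over the 3 receptors, the level was 87.9 ± 19.1 CPM per kb (SD, n = 3) in the glands and 81.4 ± 6.08 CPM per kb in the tumors (exact permutation test, two-sided, p = 0.6). The make-up of this sum differed. *Tgfbr1* took 34.0%, 35.3% and 48.9% of it in the glands and 65.6%, 65.4% and 57.5% in the tumors. *Tgfbr3* took 40.8%, 32.8% and 27.4% in the glands and 14.4%, 11.7% and 15.1% in the tumors. Neither of these shares overlapped between the tissues. For each *Tgfbr3* there were 0.834 to 1.78 *Tgfbr1* per kb in the glands and 3.79 to 5.58 in the tumors, and the ratio of *Tgfbr2* to *Tgfbr3* went from 0.620 to 0.975 in the glands to 1.39 to 1.96 in the tumors. The *Tgfbr2* share overlapped, at 23.6% to 31.9% in the glands and 20.0% to 27.4% in the tumors.

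**Figure D2:**
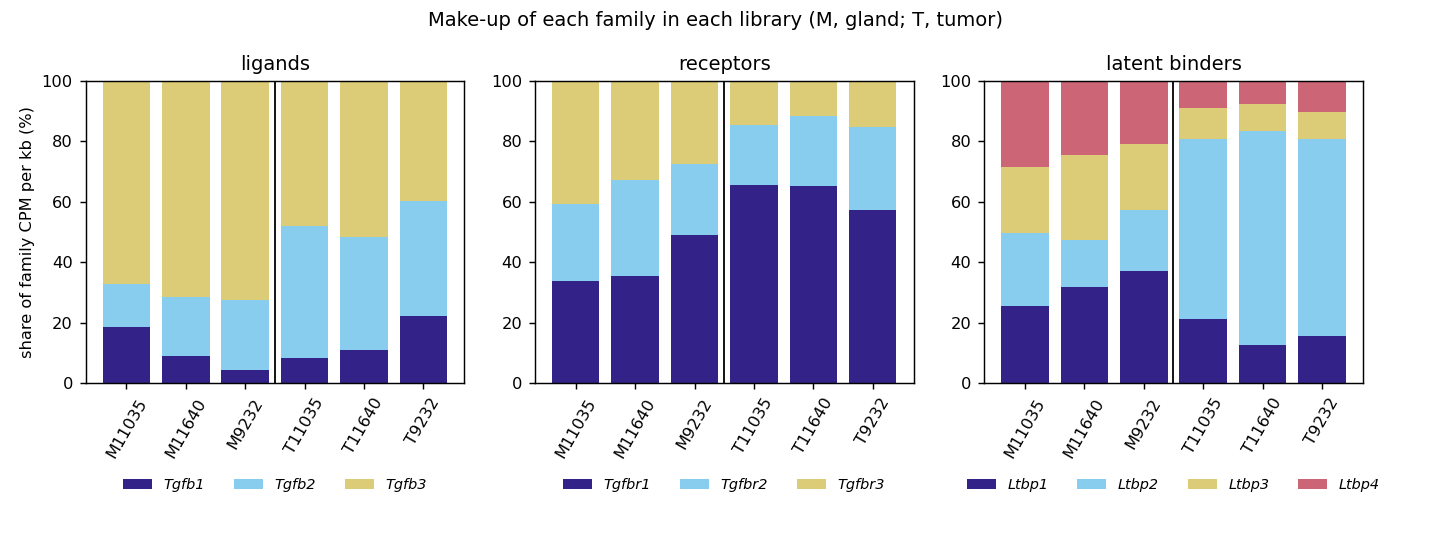
Share of each member in the summed CPM per kb of its family (vertical axis, %, stacked to 100) in each of the 6 libraries (M, normal gland; T, tumor; a black line parts the tissues). *Tgfb2*, *Tgfbr1* and *Ltbp2* filled a larger share in every tumor than in any gland, with *Ltbp2* at 59.4% to 70.8% in the tumors and 15.7% to 24.3% in the glands.

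Of the latent binders, *Ltbp2* was upregulated and *Ltbp4* downregulated, while *Ltbp1* and *Ltbp3* were not DEGs. *Ltbp2* (chr12:86124162-86217482, minus strand) is the member of its family that is known not to bind latent TGF-β, and it is deposited on fibrillin microfibrils. It had 21.3, 21.5 and 19.3 CPM in the glands and 63.8, 104 and 91.1 CPM in the tumors. The glands were nearly equal, and the lowest tumor was well above all of them. The mean rose from 20.7 ± 1.23 CPM (SD, n = 3) to 86.2 ± 20.4 CPM, 4.17-fold higher. The fit gave a log2 fold change of 2.01 (standard error 0.20, 95% interval 1.54 to 2.47, adjusted p = 1.12e-04, limma), with 1.56, 2.25 and 2.21 within the 3 mice. *Ltbp2* was a DEG under all 16 alternatives, with log2 fold changes from 1.86 to 2.21 and adjusted p up to 0.00932, the latter against gland M9232 alone (limma). Beside it 5 of the 6 epithelial markers were upregulated, with log2 fold changes of 5.48 for *Krt5* and 5.75 for *Krt14*, while *Epcam* was at 0.56 and missed the FDR (adjusted p = 0.124, limma). The part of epithelial cells in the rise of *Ltbp2* was not tested. Its exons overlap *D030025P21Rik*, which had 0.813 to 1.49 CPM in the glands and 1.30 to 2.88 CPM in the tumors, and fragments from the shared exons cannot be assigned to 1 of them.

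*Ltbp4* (chr7:28090155-28122711, minus strand), which binds latent TGF-β1 and supports elastic fibers, had 19.7, 26.4 and 15.9 CPM in the glands and 7.44, 8.78 and 11.4 CPM in the tumors. All tumors were below all glands. Its log2 fold change was -1.12 (standard error 0.25, 95% interval -1.69 to -0.54, adjusted p = 0.00783, limma). This call was close to the FC threshold. It was lost without gland M11640 (-0.93) and without tumor T11035 (-0.98), where the adjusted p was 0.0262 and 0.0316 (limma). With gland M9232 alone, which leaves fewer libraries, the value was -0.77 and the call was lost as well (adjusted p = 0.155, limma). Over the 16 alternatives adjusted p ran from 0.00147 to 0.155.

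*Ltbp3* (chr19:5740904-5758532, plus strand), which joins the complex of all 3 ligands inside the cell, had 12.2, 24.3 and 13.4 CPM in the glands and 7.07, 8.39 and 7.94 CPM in the tumors. The tumors were all below the glands, of which M11640 was the highest. The log2 fold change was -0.98 (standard error 0.28, 95% interval -1.62 to -0.35, adjusted p = 0.0215, limma), just short of the FC threshold. It was a DEG under 6 of the 16 alternatives, among them edgeR and DESeq2 (-1.09 in both). Without gland M11640 it was -0.68, and over all 16 alternatives adjusted p ran from 0.00918 to 0.119.

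*Ltbp1* (chr17:75404908-75791852, plus strand), the founding latent binder and a fibronectin and fibrillin ligand, had 29.3, 56.7 and 46.6 CPM in the glands and 30.0, 24.1 and 28.8 CPM in the tumors. Gland M11035 lay among the tumors and the other two glands above them. The difference, -0.62 on the log2 scale (standard error 0.25, 95% interval -1.19 to -0.06), missed the FDR (adjusted p = 0.0743, limma). Without gland M11035 it was -0.89, short of the FC threshold, and adjusted p ran from 0.00855 there to 0.218 over the 16 alternatives.

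Summed per kb, the latent binders were at 13.1 ± 3.18 CPM per kb (SD, n = 3) in the glands and 16.0 ± 2.57 CPM per kb in the tumors (exact permutation test, two-sided, p = 0.2). *Ltbp2*, known not to bind latent TGF-β, is part of this sum. The means of *Ltbp1*, *Ltbp3* and *Ltbp4* were 4.13, 3.20 and 3.20 CPM per kb in the glands. In the tumors they were lower, at 2.58, 1.50 and 1.42 CPM per kb. On exon unions, the mean parts of this sum in the glands were 31.5% ± 5.82 for *Ltbp1*, 20.0% ± 4.27 for *Ltbp2*, 23.9% ± 3.53 for *Ltbp3* and 24.6% ± 3.76 for *Ltbp4* (SD, n = 3). The sizes of the parts depend on the length used. The exon union of *Ltbp1* is 10688 bp and its longest transcript 6671 bp, beside 8193 and 6769 bp for *Ltbp2*. In the tumors *Ltbp2* took 65.1% ± 5.67, and the other 3 took 16.6% ± 4.45, 9.44% ± 0.812 and 8.89% ± 1.36 (SD, n = 3). None of the 4 shares overlapped between the tissues. The 4 shares add up to the whole, so a larger *Ltbp2* share by itself makes the other 3 smaller. The level of *Ltbp1* did overlap. For each *Ltbp4* there were 0.641 to 0.959 *Ltbp2* per kb in the glands and 6.31 to 9.32 in the tumors. Shares within a family are thus not independent, and none were computed for other genes as a background. Over all 10 members, 8 shares did not overlap. For each of these the exact permutation test (two-sided) gave p = 0.1, the smallest that 3 against 3 libraries allow, and 0.125 after Benjamini-Hochberg adjustment over the 10 shares.

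**Figure D3:**
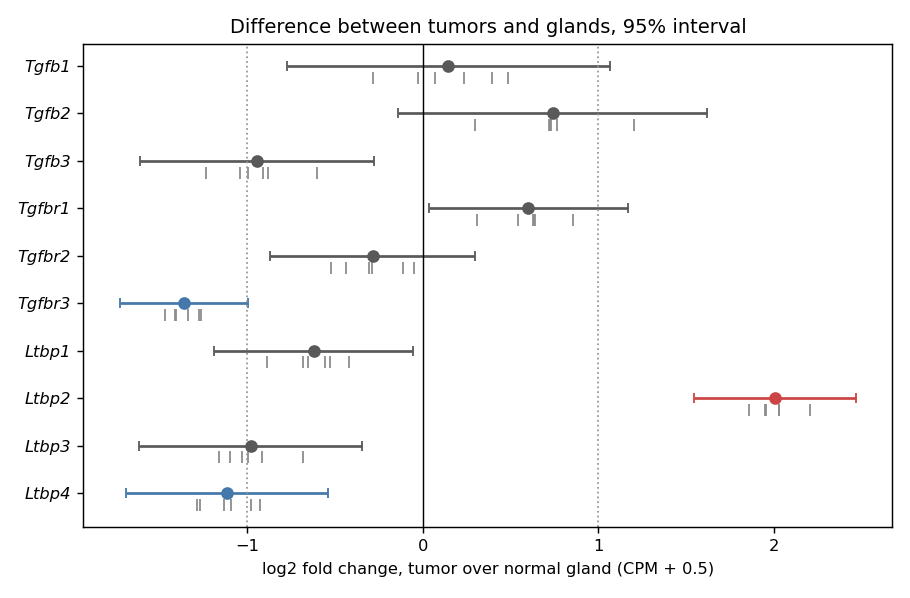
Log2 fold change of each member, tumor over normal gland on log2(CPM + 0.5) (horizontal axis), with its 95% interval from limma (red, upregulated DEG; blue, downregulated DEG; dark grey, no DEG); grey ticks give the value without each library in turn, and dotted lines mark an FC of 2. The interval of *Ltbp2*, 1.54 to 2.47, lies apart from those of the other latent binders, and the ticks of *Tgfb1* lie on both sides of 0.

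On the scale of CPM per kb, the order of the members was headed by *Tgfbr1* in both tissues, at 35.2 ± 12.7 (SD, n = 3) in the glands and 51.0 ± 3.64 in the tumors. In the glands it was followed by *Tgfbr3* (28.8), *Tgfb3* (25.2) and *Tgfbr2* (23.9), and the ranges of these neighbors overlapped. A gap separated them from *Tgfb2* (7.11), *Ltbp1* (4.13), *Ltbp4* (3.20), *Ltbp3* (3.20), *Tgfb1* (3.15) and *Ltbp2* (2.53), whose neighboring ranges overlapped too. In the tumors *Tgfbr2* (19.2) came next and lay apart from both its neighbors. *Tgfb3* (12.2), *Tgfbr3* (11.2), *Ltbp2* (10.5) and *Tgfb2* (10.5) followed with overlapping ranges, and *Tgfb1* (3.76), *Ltbp1* (2.58), *Ltbp3* (1.50) and *Ltbp4* (1.42) were lowest. By the means on exon unions, *Ltbp2* was thus the lowest member in the glands and the fifth in the tumors, and *Ltbp4* the lowest in the tumors, where its range overlapped that of *Ltbp3*. These ranks depend on the length used, which for *Ltbp2* was 8193 bp, beside 6769 bp for its longest transcript. In the glands the range of *Ltbp2* overlapped that of *Tgfb1*. The CV was smaller in the tumors than in the glands for 7 of the 10 members, beside 57.8% of the 14600 genes that averaged 1 CPM or more over the libraries and were above 0 in both tissues. The median CV was 33.3% in the glands and 13.1% in the tumors, beside 20.9% and 17.3% over those 14600 genes.

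The genes whose levels over the 6 libraries were most like those of the 3 DEGs were found by Pearson's r on log2(CPM + 0.5), over the 14702 genes other than the members that averaged 1 CPM or more. These values describe 6 libraries of 2 tissues, and many genes separate the tissues in the same way. For *Tgfbr3* they were *Pex11a*, *Gsn* and *Itih5*, with r = 0.999, 0.999 and 0.997. For *Ltbp2* the gene most like it was *Cnfn*, with r = 0.999, although *Cnfn* was under the floor of detection in the glands, at 0 to 0.330 CPM. For *Ltbp4* they were *Tpcn1*, *Parp3* and *Pde8a*, with r = 0.999, 0.999 and 0.998.

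The rest of the pathway was examined with 6 lists of 69 genes in all, chosen with earlier results of these data known. Genes that release or hold the latent ligand and genes that respond to it were mostly upregulated. The list of signal transducers, with *Smad2*, *Smad3* and *Smad4* among its genes, held 0 DEGs. *Tgif1* and *Nedd4l*, which act on Smads and were DEGs, were listed as inhibitors. Of 14 genes of latent TGF-β activation, 10 were upregulated DEGs (71.4%, beside 14.5% of all genes), with a median log2 fold change of 1.50. *Mmp9*, a secreted gelatinase, averaged 6.30 ± 1.43 CPM in the glands and 78.6 ± 14.3 CPM in the tumors (SD, n = 3), a rise of 3.54 on the log2 scale (adjusted p = 9.07e-06, limma). *Thbs1* encodes thrombospondin 1, an activator of latent TGF-β, and averaged 34.2 ± 12.9 and 268 ± 16.6 CPM, a rise of 3.03 (adjusted p = 6.58e-05, limma). Of the integrin subunits, *Itgav*, *Itgb1*, *Itgb5* and *Itgb6* were upregulated. *Itgb6* was at 11.6, 11.1 and 15.0 CPM in the glands and 45.6, 46.7 and 48.3 CPM in the tumors. *Itgb8*, which pairs with *Itgav* in the other main activating integrin, was at -0.18 on the log2 scale and missed the FDR (adjusted p = 0.665, limma).

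Of 9 genes of matrix docking and extracellular binders, 8 were upregulated (88.9%, beside 14.5% of all genes), with a median log2 fold change of 2.42. *Fbn2*, a fibrillin of microfibrils, went from 1.44 ± 0.691 CPM in the glands up to 53.5 ± 18.9 CPM in the tumors (SD, n = 3), a log2 change of 4.78 (adjusted p = 2.21e-05, limma). *Aspn*, a small leucine-rich proteoglycan that can bind TGF-β, went from 24.2 ± 12.5 up to 235 ± 45.8 CPM, a log2 change of 3.34 (adjusted p = 8.23e-05, limma). *Fbn1* and *Fn1*, which encode the matrix partners of the latent binders, were upregulated with log2 fold changes of 2.42 and 2.60. The fibroblast markers moved in both directions, with 3 of 7 upregulated and 2 downregulated, and their sums overlapped between the tissues (379 to 1518 CPM in the glands, 744 to 1205 CPM in the tumors). *Dcn*, which encodes decorin, was at 0.09 on that scale and overlapped between the tissues (adjusted p = 0.907, limma).

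Of 18 response genes, 15 were upregulated (83.3%, beside 14.5% of all genes), with a median log2 fold change of 2.90. *Timp1*, an inhibitor of matrix metalloproteinases, averaged 0.764 ± 0.414 CPM in the glands, near the floor, and 32.7 ± 11.1 CPM in the tumors (SD, n = 3), with a fitted log2 change of 4.72 (adjusted p = 1.74e-05, limma). *Col1a1*, a chain of type I collagen, averaged 72.8 ± 43.5 CPM in the glands and 1636 ± 81.9 CPM in the tumors, 4.63 higher on the log2 scale (adjusted p = 2.00e-05, limma). The genes of this list that were not DEGs were *Tagln*, *Acta2* and *Pdgfb*. *Tagln* passed the FDR but not the FC threshold (log2 fold change 0.82, adjusted p = 0.0156, limma), and *Acta2* and *Pdgfb* missed the FDR at 0.49 and 0.89. These genes answer to other signals too, and nothing here measured TGF-β activity.

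Of 10 signal transducers, 0 were DEGs with limma, beside 28.2% of all genes, and 0 with edgeR or DESeq2. Among them 2 had an unadjusted p under 0.05 (limma). These were *Zfyve9* and *Map3k7*, which also passed the FDR (adjusted p = 0.0328 and 0.0289, limma) but were short of the FC threshold, with log2 fold changes of 0.80 and 0.40. *Smad3*, 1 of the receptor-activated Smads, was at 28.3, 29.1 and 29.0 CPM in the glands and 28.3, 29.7 and 26.4 CPM in the tumors. The log2 fold changes were 0.16 for *Smad2*, -0.03 for *Smad3* and -0.07 for *Smad4*. Of 14 pathway inhibitors, 1 was upregulated and 1 downregulated (14.3% together, beside 28.2% of all genes), and 6 passed the FDR. *Tgif1*, a co-repressor of Smads, was upregulated. It had 20.1 ± 8.07 CPM in the glands and 55.6 ± 5.66 CPM in the tumors (SD, n = 3). Its log2 change was 1.51 (adjusted p = 0.00227, limma). *Nedd4l*, a ubiquitin ligase that acts on activated Smads, was downregulated. It had 106 ± 12.9 CPM in the glands and 34.1 ± 3.65 CPM in the tumors (SD, n = 3). Its log2 change was -1.62 (adjusted p = 1.04e-04, limma). The other inhibitors that passed the FDR rose but were short of the FC threshold. *Skil* was 0.90 higher on the log2 scale (adjusted p = 9.58e-04, limma) and *Pmepa1* 0.92 higher (adjusted p = 0.00447, limma). *Smurf1* and *Smurf2* were 0.58 and 0.41 higher. In 8 of the 14 inhibitors all tumors were above all glands, and in 1 all were below. Among 4 accessory receptors, *Bambi*, a decoy receptor without a kinase, was upregulated, with 2.76 ± 1.10 CPM in the glands and 28.4 ± 10.2 CPM in the tumors (SD, n = 3) and a log2 change of 3.14 (adjusted p = 1.40e-04, limma). *Tgfbrap1* passed the FDR short of the FC threshold, at -0.46 (adjusted p = 0.0359, limma), with all tumors below all glands. *Eng* and *Acvrl1*, which encode endothelial receptors of the family, had log2 fold changes of -0.40 and -0.35 and did not pass the FDR (adjusted p = 0.236 and 0.348, limma).

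**Figure D4:**
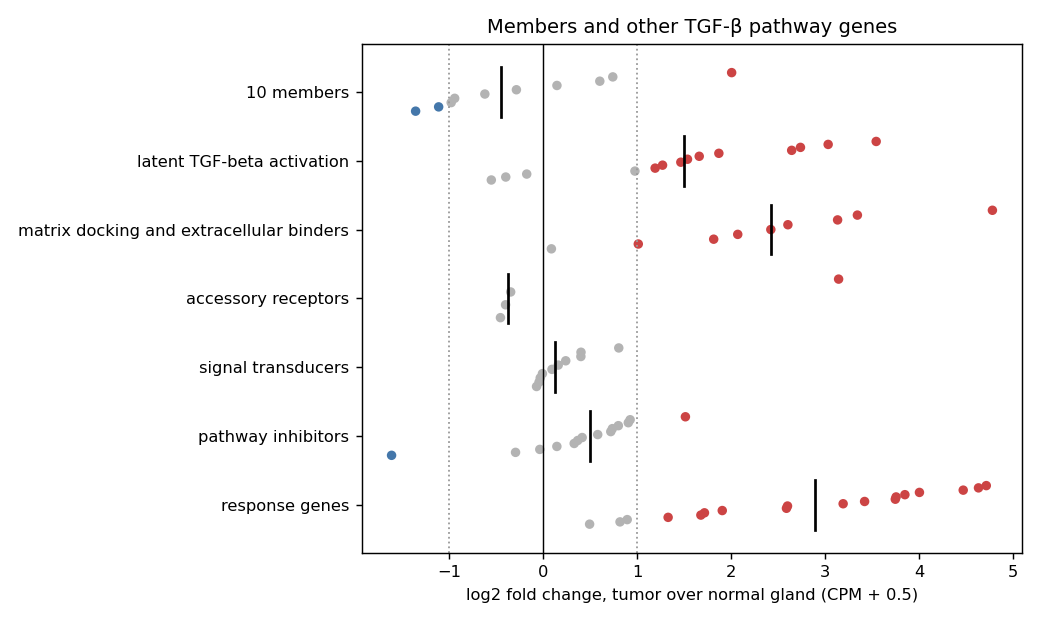
Log2 fold change, tumor over normal gland on log2(CPM + 0.5) (horizontal axis), of the 10 members and of each gene of the 6 pathway lists (1 point per gene; red, upregulated DEG; blue, downregulated DEG; grey, no DEG; black bar, median of the list; dotted lines, an FC of 2). The medians were -0.46 for the members, 0.12 for the signal transducers, 1.50 for latent activation, 2.42 for matrix docking and 2.90 for the response genes.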

How the data were processed

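RNA-Seq libraries of 3 mammary tumors and 3 adjacent normal glands were used, grouped by the labelled tissue type. Per the paper's methods and the submitters' processing notes, read pairs were mapped to mm9 with TopHat2 2.0.3 and counted per RefSeq gene with HTSeq 0.5.3p9. Genes with under 10 fragments in all were removed (the lowest total was 11). Libraries were made with the Ovation RNA-Seq System V2. The authors deposited a normalized expression signal, CPM on edgeR's effective library size (edgeR 3.6.1). The columns sum to 952151 to 1041166 and so are not plain CPM: the unit was recorded as a signal. The test planned for CPM was kept. All values (100%) were whole multiples of 1 fragment within 0.01, and the recovered fragments gave back the effective library sizes (ratio 1). No libraries were copies (chi-square per degree of freedom at least 13.0), and 0 per-sample columns were left out.

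Genes were tested with limma 3.58.1 (R 4.3.3) on log2(CPM + 0.5), with the prior variance following the mean level; p-values were two-sided and adjusted by Benjamini-Hochberg over all 15280 genes. The fits were tested on simulated data. Alternatives were pseudocounts of 0.1 and 1, a minimum mean of 1 CPM, other scalings, the mouse as a block, edgeR 4.0.16 and DESeq2 1.42.0 on the recovered fragments, each library left out, and, added after the muscle markers had been seen, gland M9232 alone. On the recovered fragments edgeR called 2238 genes higher and 2224 lower, beside 2212 and 2097 with limma. Tumor and gland of a number come from the same mouse and are paired. Their deviations from the tissue means correlated with r = 0.107, 0.151 and 0.0168 over 14712 genes. The methods name no block, so the reported fit has none.

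The members and lists were chosen with earlier results of these data known. Genes named are the members, the 2 DEGs with the largest rise and fall in each list, the genes most like each DEG (3 each, of which some are not reported here), the markers and *Atf3*; other list genes were named after their values were seen. Positions and exon lengths are those of GENCODE vM1 on mm9. Of the members, *Ltbp2* alone had a stretch at least 95% identical over 500 bp to another gene's transcript (*D030025P21Rik*, 764 bp). Strand was not stated for the counting.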

Additional observations from a re-analysis of the deposited data

How the results depend on the processing

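Of the 10 members, 6 kept their call or lack of one under all 16 alternatives (*Tgfb1*, *Tgfbr1*, *Tgfbr2*, *Tgfbr3*, *Ltbp1* and *Ltbp2*). The number of members downregulated was 4 with edgeR and 4 with DESeq2, where *Tgfb3* and *Ltbp3* passed the FC threshold, and it ran from 1 to 4 when each library was left out. The number upregulated ran from 1 to 2, with *Tgfb2* added without gland M9232. *Tgfb1* changed direction, with log2 fold changes from -0.28 to 0.48 over the left-out libraries, being -0.03 without gland M9232 and -0.28 without tumor T9232, and the difference in its share ran from -0.966 to 7.22 percentage points. *Tgfb2* was at -0.19 against gland M9232 alone. The inhibitors upregulated were 1 to 3 when a library was left out and 2 with that gland alone, a setting in which *Tgif1* was at 0.92 and no longer a DEG. In the paired fit (limma with the mouse as a replicate block) the log2 fold changes of *Tgfbr3* and *Ltbp2* were -1.36 and 2.01 (adjusted p = 9.94e-04 and 3.60e-04, limma), and with limma the block changed no call among the members or the named pathway genes. In edgeR the replicate block took the members downregulated from 4 to 3, with *Tgfb3* at -0.96 no longer a DEG. Other scalings shifted the median of all genes by under 0.1 on the log2 scale. The cause of these changes was not tested. With 3 mice, changes of *Tgfb1* (28 to 107 fragments) and *Tgfbr2* within their intervals remain possible.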

Other observations

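ATF3 belongs to the ATF/CREB family of bZIP factors, which bind the CRE element, and pairs with Jun proteins at AP-1 elements. The promoter windows of RefSeq (GRCm38.p6, 250 bases before to 50 after the annotated start) gave 12 windows for 8 of the 10 members. *Tgfb3* and *Tgfbr3* had no window and were not searched. The windows were searched on both strands for the AP-1 letters TGANTCA and the CRE letters TGACGTCA, which do not overlap each other. TGANTCA was found in 7.81% and TGACGTCA in 1.79% of all 32851 windows. Among the members, 1 window held TGANTCA (*Ltbp3*, chr19:5740883-5740911) and 1 held TGACGTCA (*Ltbp1*, chr17:75005445-75005474), both on the plus strand, with the match in capitals.
*Ltbp3*: ctaagttctttTGAGTCAgacactggatc
*Ltbp1*: gatttgctgccTGACGTCAcgtctgctgca
Both genes had lower means in the tumors and neither was a DEG with limma. A match of letters is not a site of binding. The SMAD element GTCTAGAC was found in 0.213% of all windows and in 0 of those of the members.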
